A study of Homo sapiens with 6 samples.

Results

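SW480 is an established colon cancer cell line, and its folding within chromosomes 1 to 22 was compared with that of SNU-C1 (colon cancer), HCC1954 (breast cancer) and OE33 (esophageal adenocarcinoma) cells. The members were the bin pairs within chromosomes of the SW480 map without a replicate number, with pairs inside a bin left out. They numbered 27596738, of 225153452 rows in all 6 maps. At 99.9% of these bin pairs the read pairs of SW480 replicates 1 and 2 added up to those of this map, which makes it their pool, and the replicates gave the spread. The labels name no treatment of any line, and all were profiled by in situ Hi-C with the enzyme MboI. The other 3 lines had only 1 map each and thus no spread of their own, so no test was run and no p-value is given. The paper calls its Hi-C replicates biological, while the labels do not say whether those of SW480 came from separate cultures, so the spread between them may be partly technical.

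Hi-C counts how often pieces of chromatin were joined in crosslinked nuclei. Contacts become rarer with distance along the chromosome, and they are fewer across boundaries of topologically associating domains (TADs), which insulate neighbouring regions. Over longer ranges, open and gene-rich chromatin (compartment A) contacts other A chromatin, and closed, gene-poor chromatin (compartment B) contacts other B chromatin. Where a chromosome is broken and rejoined, positions that are far apart on the reference become neighbours and contact each other often. Colorectal tumours often carry such rearrangements and gains of chromosome arms, and most of them have an active WNT pathway.

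The SW480 map held 128424066 read pairs within autosomes (63525450 in replicate 1 and 64871211 in replicate 2), against 111654971 in SNU-C1, 87125253 in OE33 and 89633700 in HCC1954 cells. Bins of 40 kb were kept where no line fell under 0.25 of its median coverage, which left 62200 of 72036. The SW480 maps were corrected within each chromosome and the other 3 maps over the genome, so the counts of boundaries, blocks and block pairs below were repeated on read pairs thinned to 1 depth and corrected in the same way. In the SW480 maps 154 bins in 6 runs had under 0.1 of the median coverage while each other line had at least 0.5. Of these, 115 lay between 28.48 and 33.44 Mb of chromosome 6, a stretch that holds the major histocompatibility complex, and none of the 115 had a read pair. Next came 14 bins at 91.4-92.04 Mb and 11 at 69.2-69.88 Mb of chromosome 4, and 12 at 43.4-44.16 Mb of chromosome 17. Whether the cells lack these stretches or only the maps do was not tested. The bins were left out of the folding measures but counted in the coverage of arms, and the reason for their absence was not tested.

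Over 0.4 to 10 Mb, contact frequency fell with distance least steeply in SW480 cells. The slope on log scales was -1.239 in the pooled map, -1.239 in replicate 1 and -1.238 in replicate 2. It was -1.248 in OE33, -1.298 in HCC1954 and -1.323 in SNU-C1 cells. The gap to OE33, the nearest line, exceeded the difference between the replicates. Over 1 to 5 Mb it did not, with -1.2961 in SW480 (-1.2966 and -1.2956 in the replicates) and -1.2963 in OE33, while HCC1954 (-1.368) and SNU-C1 (-1.395) stayed steeper. On 17 of 22 chromosomes SW480 had the shallowest slope of the 4 lines and on 0 the steepest, while the replicates differed by at most 0.0043 on any chromosome. The exceptions were chromosomes 13, 18, 19, 21 and 22.

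The shallow slope went with the largest shares of read pairs at 1 to 5 Mb and at 5 to 20 Mb. In corrected contact frequency, on which the slope rests, the order differed near the ends of this range. At 1.08 Mb HCC1954 lay above SW480 (10.2 against 9.56 times the mean of all bin pairs). At 14.7 Mb OE33 did (0.548 against 0.534). Pairs from 0.2 to 1 Mb made up 27.1% in SNU-C1, 26.5% in HCC1954, 25.8% in SW480 and 24.6% in OE33 cells. Pairs from 1 to 5 Mb made up 16.8% of read pairs in the SW480 map (16.8% in each replicate), 16.7% in HCC1954, 15.2% in OE33 and 14.5% in SNU-C1 cells. Pairs from 5 to 20 Mb made up 11.8% in SW480, 11.4% in OE33 and 10.7% in both SNU-C1 and HCC1954 cells. Beyond 20 Mb the order was different. There OE33 had 13.3%, SW480 10.3% (10.2% and 10.3% in the replicates), HCC1954 9.03% and SNU-C1 7.72%. At 40 to 200 kb SW480 had the lowest share of read pairs, 35.4% (35.4% and 35.3% in the replicates). The share was 35.6% in OE33, 37.1% in HCC1954 and 40.004% in SNU-C1 cells. The step to OE33 was small but larger than the difference between the replicates. Corrected contact frequency was instead lower in OE33, 251 against 267 in SW480 at 0.04 Mb. The OE33 map also held the most pairs between chromosomes, 47428688 bin pairs against 18370145 in SNU-C1 and 19532930 in HCC1954 cells. The part of this background in the shares beyond 20 Mb was not tested.

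**Figure D1:**
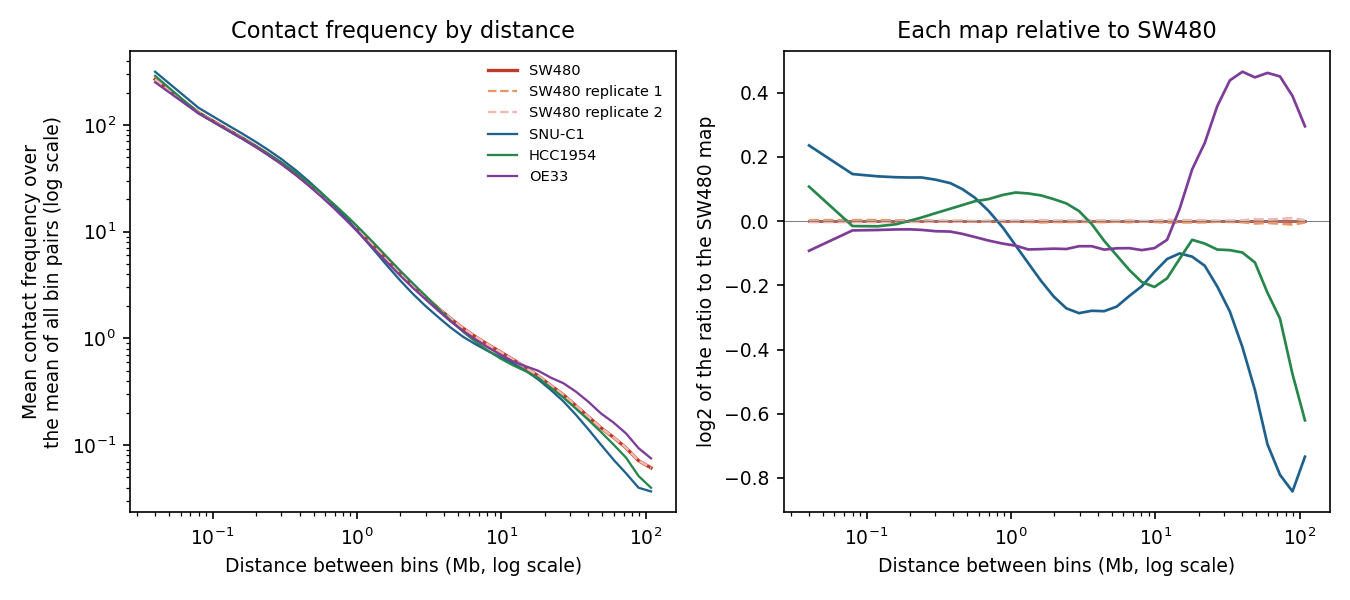
Mean contact frequency against the distance between bins (left, both axes on log scales) and the log2 ratio of each map to the SW480 map (right) for the 6 maps; lines join means over distance steps, and the dashed lines are the SW480 replicates. The replicates lie on the SW480 line, SNU-C1 lies above it at short range and below it beyond 1 Mb, and OE33 lies above it from 14.7 Mb.

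TAD boundaries were insulation minima, and most of them were shared between lines. The SW480 map had 2436 boundaries (2446 and 2431 in the replicates), SNU-C1 2532, HCC1954 2461 and OE33 2260. Of the boundaries of replicate 1, 96.3% lay within 2 bins of one in replicate 2, and 96.9% the other way. Against the other lines the shares of the SW480 boundaries were 85.3% (SNU-C1), 82.5% (HCC1954) and 74.6% (OE33), and 1546 (63.5%) were found in all 3 other lines. Across 59583 bins the insulation score of SW480 correlated with that of SNU-C1 at r = 0.90, of HCC1954 at 0.86 and of OE33 at 0.84, against 0.9966 between the replicates. Neighbouring bins share read pairs, so these correlations are descriptions. After thinning and the same correction they were 0.92, 0.91 and 0.90.

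Of the SW480 boundaries, 108 were in both replicates within 1 bin and in no other line within 2 bins, which is 4.43% of 2436. Without the replicate requirement the count was 129, fewer than the 208 of SNU-C1, the 181 of HCC1954 and the 177 of OE33 under the same rule. Between the replicates themselves, 91 boundaries of replicate 1 were missing from replicate 2 and 76 the other way. Boundaries in all 3 other lines numbered 1299, of which 53 (4.08%) were absent from the 3 SW480 maps. Without a replicate rule the count of boundaries absent from a single line was 55 for SNU-C1, 65 for SW480, 76 for HCC1954 and 172 for OE33.

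Few of the 108 boundaries were much deeper in SW480 than in every other line. The depth of a boundary is the mean insulation score of bins on both sides minus the lowest score within 1 bin of the boundary, on the log2 scale. The depth in SW480 exceeded that of the highest other line at 56 of 108, by a median of 0.0035 over all of them, and by at least 0.1 at 17. The median difference between the replicates was 0.020 and the largest 0.082. The difference to the other lines was thus larger than any difference between the replicates at those 17.

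The SW480-only boundary with the largest difference in depth from the other lines lay at 93.84 Mb of chromosome 5, inside *KIAA0825*, and had a depth of 0.71 (0.71 and 0.70 in the replicates). At the same bin the depth was -0.20 in SNU-C1, -0.33 in OE33 and -0.38 in HCC1954 cells, so the score was not below its surroundings in the other lines. Coverage of SW480 relative to the other lines changed from 0.87 to 1.38 between the 400 kb before and after it. The next by this difference lay at 126.56 Mb of chromosome 8, with no protein-coding gene in the bins around it. Its depth was 0.48 (0.48 and 0.49), against -0.08, -0.0003 and -0.04 in SNU-C1, HCC1954 and OE33 cells. Relative coverage rose there from 0.66 to 3.74, and a junction described below starts 1 bin away. Near both boundaries, every other line had a boundary that was not called in SW480, at 94.28 Mb of chromosome 5 and 126.8 Mb of chromosome 8. The depth at 94.28 Mb was 0.26 in SW480 and 0.18 to 0.50 in the other lines. At 126.8 Mb it was 0.29 in SW480 and 0.34 to 0.45 in the other lines. A shift and a gain thus cannot be told apart at either place.

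The other 8 of the 10 with the largest differences had values of 0.13 to 0.29. One lay at 12:131.36 Mb over *STX2*, a syntaxin of membrane fusion, *RAN*, the GTPase of nuclear transport, and the adhesion receptor gene *ADGRD1*. Others lay in *HS3ST4* (a heparan sulfate sulfotransferase) on chromosome 16, *SHANK2* (a synaptic scaffold) on chromosome 11, *ROBO1* (a SLIT receptor) on chromosome 3, *DOCK9* on chromosome 13, and beside the hyaluronidase-family genes *HYAL4* and *SPAM1* on chromosome 7. At *SHANK2* the depth was -0.009 in SW480 (-0.013 and -0.005) and -0.28 to -0.18 in the other lines. The score was thus not below its surroundings in SW480 there either. The boundaries at 164.60 Mb of chromosome 6 and 59.32 Mb of chromosome 20 held no protein-coding gene. The former lay 3 bins from a boundary at 164.48 Mb that was called in the other 3 lines only, so a shift and a gain cannot be told apart there. After thinning and the same correction 7 of the 10 were called again, and those at *STX2*, *HYAL4* and *SHANK2* were not. Of all 108, 74 were called again. A step in relative coverage of at least 1.5-fold lay at 6 of the 108 (5.56%) and at 29 of 2435 SW480 boundaries (1.19%), and the part of such steps in the calls was not tested.

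Among the 53 boundaries absent from SW480, the largest difference was at 195.64 Mb of chromosome 3, at the tyrosine kinase gene *TNK2*. Its depth there was 0.75 in SNU-C1, 0.67 in OE33 and 0.41 in HCC1954 cells, against -0.05 in the SW480 map and in each replicate. A SW480-only boundary was called 3 bins away, at 195.76 Mb, so a shift and a loss cannot be told apart. With absence asked for within 4 bins, 72 of the 108 and 35 of the 53 boundaries were left. The next largest difference was at 35.00 Mb of chromosome 14, at *EAPP* and *SNX6*, where the depth was 0.55 in SW480 (0.54 and 0.57) and 0.87 to 1.21 in the other lines. Insulation thus dipped there in SW480 too, without a boundary called within 2 bins. The third, over *LRP1B* at 142.80 Mb of chromosome 2, a large receptor gene at a fragile site, had a depth of 0.05 in SW480 and 0.32 to 0.37 in the other lines. These genes were chosen after their values were seen. In all, 16 of the 53 differed from the lowest other line by at least 0.1.

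**Figure D2:**
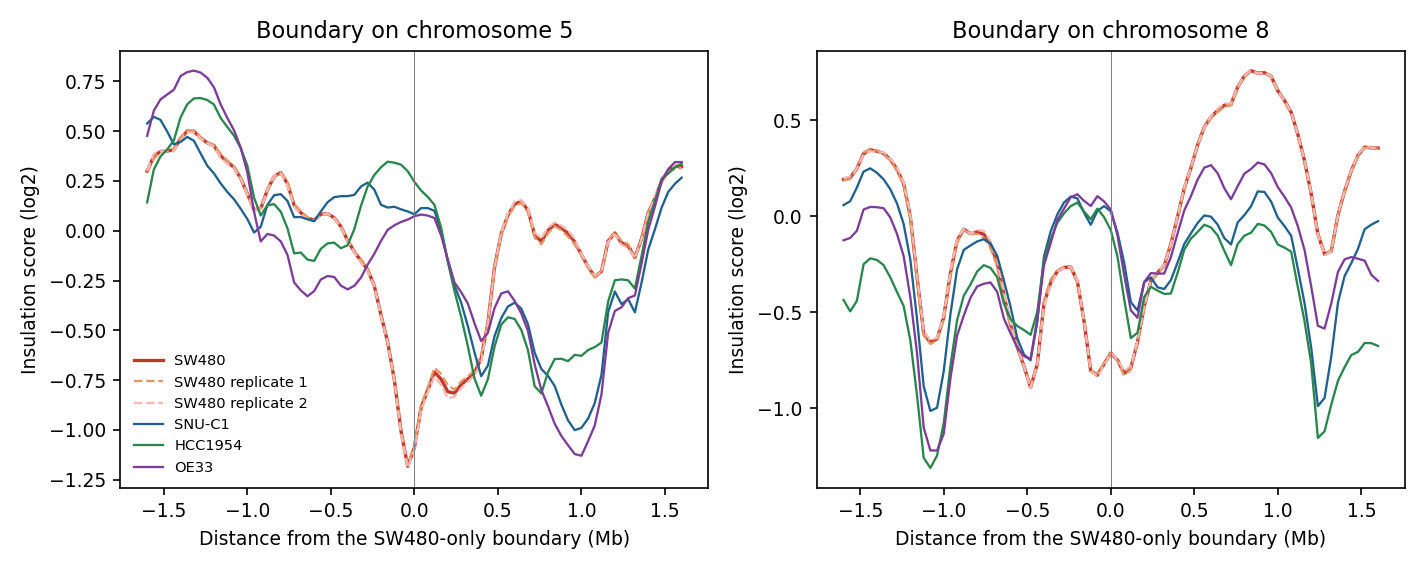
Insulation score (log2, 1-Mb window) against the distance from the SW480-only boundaries on chromosome 5 (93.84 Mb) and chromosome 8 (126.56 Mb) in the 6 maps, with the SW480 replicates dashed. On chromosome 5 the 3 SW480 maps lie near -1.1 at 0 where the other 3 lines lie between 0.07 and 0.25, and on chromosome 8 the SW480 maps are lower around 0 and higher beyond 0.5 Mb.

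Compartments were scored in 200-kb blocks along each arm, in units of the standard deviation of the arm, with A above 0. On 36 arms and 12010 blocks, SW480 had 50.9% of blocks in A, close to HCC1954 (50.8%) and above OE33 (46.5%) and SNU-C1 (45.2%). The score of SW480 correlated with that of SNU-C1 at r = 0.86, of OE33 at 0.84 and of HCC1954 at 0.78 over the blocks, and the replicates correlated with each other at 0.993. On 8p, 9p, 13q, 19p and 19q the component that served as the score was not of the same rank in every line, and without these arms 383 of the 410 switched blocks described below were left. By arm, SW480 was closest to OE33 on 18, to SNU-C1 on 17 and to HCC1954 on 1. By this count of arms SW480 was thus not nearest to the other colon cancer line more often than to OE33. Over all blocks the highest correlation between lines was that of SW480 with SNU-C1 (0.857), followed by HCC1954 with OE33 (0.856). SNU-C1 correlated with OE33 at 0.823 and with HCC1954 at 0.764. After thinning and the same correction the margins were small, with 0.845 for SW480 with SNU-C1, 0.841 for HCC1954 with OE33 and 0.839 for SW480 with OE33.

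Separation of the compartments was intermediate in SW480 cells. The mean observed over expected contact (O/E) within the top and within the bottom 20% of blocks by score, divided by that between them, was 4.92 in the SW480 map (4.92 and 4.89 in the replicates). It was 7.58 in OE33, 4.46 in SNU-C1 and 3.52 in HCC1954 cells, and each of these gaps exceeded the difference between replicates. Thinned and corrected in the same way, the values were 4.91 in SW480, 7.14 in OE33, 4.35 in SNU-C1 and 3.43 in HCC1954 cells. Contacts between A and B blocks had an O/E of 0.379 in SW480 cells, close to 0.371 in SNU-C1, with 0.503 in HCC1954 and 0.288 in OE33 cells. After thinning SW480 and SNU-C1 had 0.3753 and 0.3757, so their order turned. Contacts among B blocks had an O/E of 2.13 in SW480 against 1.82 in SNU-C1, 2.998 in OE33 and 2.07 in HCC1954 cells.

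More blocks were switched to A in SW480 only than to B. With all 3 SW480 maps on 1 side of 0, all other lines on the other side and a gap of at least 0.5, 310 blocks (2.58% of 12010) were in A in SW480 only and 100 (0.833%) in B only. They formed 174 and 60 runs and held 181 and 88 of 16878 protein-coding genes with a score. The replicates lay on different sides of 0 in 295 blocks, with a gap of 0.5 or more in 7 of them. Without the replicate requirement the counts were 329 to A and 111 to B in SW480, 385 and 140 in HCC1954, 144 and 285 in SNU-C1, and 62 and 127 in OE33. The share to A among switched blocks was 75.6%, and 66.5% after thinning and the same correction (246 to A and 124 to B). Of the 310 and 100 blocks, 215 and 88 were called again there.

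Blocks switched to A also had higher coverage. Their median relative coverage was 1.25, against 1.05 over all blocks and 0.89 in blocks switched to B. It was at least 1.5 in 81 of the 310 (26.1%), against 4.90% of all blocks, and at most 0.6 in 14 of the 100 switched to B, against 3.05% of all blocks. Coverage between 0.8 and 1.2 was found in 123 of the 310 (39.7%) and in 61 of the 100, against 59.1% of all blocks. The part of coverage in the switches was not tested. In sequence, blocks switched to A had a median GC content of 39.98% and a mean of 0.584 genes per block, against 37.1% and 0.456 in blocks that were B in all 4 lines and 43.5% and 2.56 in blocks that were A in all 4 lines. Blocks switched to B had 38.7% GC and 0.880 genes per block. The number of GATC sites, which MboI cuts, was 477 and 471 per block in blocks to A and to B, and 487 over all blocks.

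The run with the largest gap to A lay at 37.2-37.8 Mb of chromosome 18 and held no protein-coding gene. Its mean score was 0.92 in SW480 (0.96 and 0.79 in the replicates), against -1.27, -1.25 and -1.19 in SNU-C1, HCC1954 and OE33 cells. A neighbouring run at 35.4-37 Mb scored 0.45 against -1.25 to -1.31, and relative coverage was 2.05 and 1.81 in these runs. On chromosome 5, the run at 94.2-94.8 Mb over *MCTP1*, *FAM81B* and *SKIC3* scored 0.67 (0.72 and 0.68) against -1.07 to -1.39. It lies just beyond the *KIAA0825* boundary and had a relative coverage of 1.74.

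The run at 2.8-3.8 Mb of chromosome 5 held *IRX1*, a homeobox gene, and scored 0.71 (0.68 and 0.65) against -0.89 in SNU-C1, -1.13 in OE33 and -1.26 in HCC1954 cells. *POU3F2*, a neural POU factor, shared a run on 6q with *FBXL4*, which scored 0.49 against -1.03 to -1.20 with a relative coverage of 1.09. The axon guidance receptor *ROBO2* (0.47 against -1.32 to -1.55) lay in a block with a relative coverage of 2.31. Further runs held *CSMD3* on 8q, *ADAMTS12*, *RXFP3*, *SLC45A2* and *AMACR* on 5p, and *ATP10A* on 15q.

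The largest gap to B was at 11.2-11.8 Mb of chromosome 4 at *HS3ST1*, a heparan sulfate sulfotransferase. The score was -1.10 in SW480 (-1.04 and -1.03 in the replicates), against 0.69, 0.56 and 0.53 in SNU-C1, HCC1954 and OE33 cells, with a relative coverage of 0.64. The longest of the 10 runs to B, 6 blocks at 16.8-18 Mb of chromosome 7, held *AGR2* and *AGR3*, disulfide isomerases of mucus-secreting epithelium, *AHR*, the aryl hydrocarbon receptor, *TSPAN13* and *SNX13*. There SW480 scored -0.39 (-0.41 and -0.40) against 0.90 in SNU-C1, 0.92 in OE33 and 1.11 in HCC1954 cells, with a relative coverage of 0.96. All 6 blocks were called again after thinning.

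The other runs to B were shorter. The run at 18-18.6 Mb of 8p held *NAT1* and *NAT2*, arylamine acetyltransferases, with *PSD3*, and scored -0.64 against 0.66 to 1.43. The block at 69.8-70.0 Mb of chromosome 4 held the glucuronosyltransferases *UGT2A3* and *UGT2B7* and scored -1.04 against 0.46 to 0.94. It overlaps a run of bins missing from the SW480 maps (69.20-69.88 Mb), in which *UGT2A3* lies. *INPP4B*, a phosphoinositide phosphatase, lay in 4 blocks at 143.0-143.8 Mb of 4q that scored -0.44 against 1.05 to 1.23. The remaining runs held *TTC33* on 5p, *FAM13A*, *TIGD2* and *GPRIN3* on 4q, *DYNAP*, *RAB27B* and *CCDC68* on 18q, *SAMD12*, *TNFRSF11B*, *COLEC10* and *MAL2* on 8q, and no gene on 6q. Relative coverage was 0.48 at *TTC33* and 0.41 at the 8q run. Blocks of each of the 20 runs were called again after thinning.

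Among the gene lists, the WNT pathway had the largest share of genes at which SW480 scored above all other lines. This was so for 11 of 25 with a score, against 23.8% of all protein-coding genes, and SW480 scored below all other lines at 1 of 25, against 9.97%. The median difference between SW480 and the mean of the other lines was 0.25 for the list and 0.08 for all genes. After thinning and the same correction the counts were 9 above and 5 below, with 15.6% and 13.3% over all genes, and the median difference was 0.14 against 0.02. Without SNU-C1 the counts were 12 and 6 of 25, with 34.8% and 19.2% over all genes. In SW480, 22 of the 25 lay in A, against 15 in SNU-C1, 20 in OE33 and 21 in HCC1954 cells, and 0 were in a switched block. Of all 16878 genes, 13423 lay in A in SW480, 12695 in SNU-C1, 12641 in OE33 and 12977 in HCC1954 cells.

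*AXIN2*, a negative regulator of WNT signalling that the pathway itself induces, had the largest difference. Its block on chromosome 17 scored 1.14 in SW480 (1.13 and 1.08 in the replicates), 0.75 in SNU-C1, -0.01 in OE33 and -0.81 in HCC1954 cells, with a relative coverage of 1.08. *APCDD1*, a membrane inhibitor of WNT on 18p, scored 1.19 (1.21 and 1.17) against -0.18, 0.55 and 0.01 in SNU-C1, HCC1954 and OE33 cells, and its relative coverage was 2.27. The other 9 genes above all lines, chosen after their values were seen, were *FZD10*, *ZNRF3*, *LEF1*, *NKD1*, *SFRP2*, *RNF43*, *DKK4*, *SP5* and *TCF7L1*. Among these, relative coverage was 0.41 at *DKK4*, 1.36 at *LEF1* and from 0.82 to 1.21 at the rest. *LEF1*, a transcription factor that carries the WNT response, scored 1.56 (1.74 and 1.72) against 0.19 to 1.03. Here the pooled score lay further from both replicates than they lay from each other. The difference between replicates thus does not bound the uncertainty of a score. At the low end, the secreted inhibitor gene *SFRP1* scored -0.53 against -0.93 to 1.01 and the ligand gene *RSPO3* -1.17 against -1.19 to -0.11, both within the range of the other lines.

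TCF and LEF factors bind DNA with the core letters CTTTGA or CTTTGT. In RefSeq promoters (GRCh38.p14, a window around each gene start), searched on both strands, 26.2% of 35116 held a match. Promoters of 6 of the 11 genes were in the table. The promoter of *SP5*, a zinc finger gene (hg19, chr2:171571847-171574588, plus strand), held 4 matches, and 39 of all promoters (0.111%) held 4 or more. They are shown because no other promoter searched from the list held as many. Of the 7 promoters of the 6 genes, 3 held a match. Promoters were found for 15 of the 27 genes of the list, and 6 of these 20 promoters held a match (30%), near the share of all promoters. *SP5* scored 1.35 in SW480 (1.43 and 1.42) and 0.99 to 1.15 in the other lines. Capitals mark the match, and the number is the position of its first base from the gene start.
SP5 at -157: accataggagCTTTGTggattcaaag
SP5 at -147: ctttgtggatTCAAAGgatttgcttt
SP5 at -109: agccgctattCTTTGAtgattgggta
SP5 at -83: gcggcaaactTCAAAGccataaatct
A match is a description of the sequence, and a 200-kb block holds far more than a promoter.

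**Figure D3:**
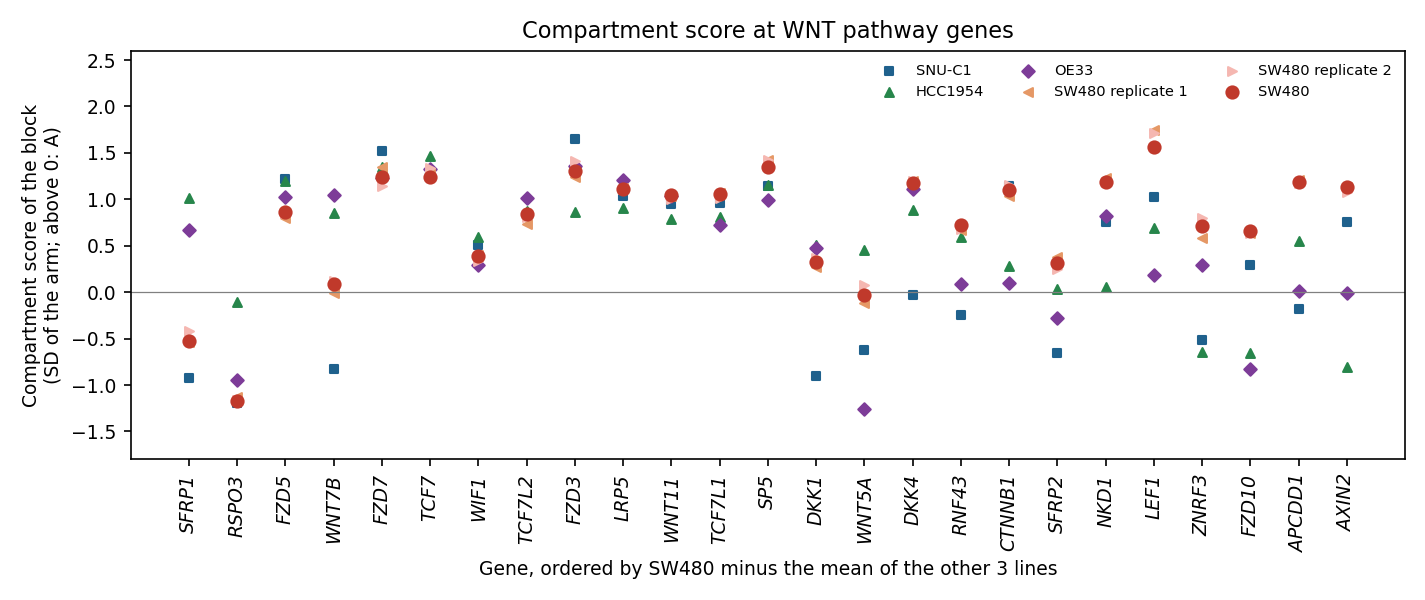
Compartment score of the 200-kb block at the start of 25 WNT pathway genes (vertical axis, in standard deviations of the arm, A above 0) in the 6 maps, ordered by SW480 minus the mean of the other 3 lines. SW480 and both replicates lie above the other lines at 11 genes, among them *AXIN2* and *APCDD1* at the right.

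The other lists had from 19.0% to 29.4% of genes above and from 13.6% to 29.4% below all lines, against 23.8% and 9.97% of all protein-coding genes. Of 21 intestinal genes with a score, SW480 was above all lines at 4 and below at 3, and the colorectal cancer list gave 5 and 4 of 23. *FABP1*, a fatty acid binding protein of enterocytes (0.65 against -0.45 to 0.51), and *GPA33*, an intestinal surface antigen (0.83 against -0.34 to 0.71), had the largest positive differences of the intestinal list. The adhesion genes *CEACAM5* and *CEACAM6* share a block with a score of -0.07 in the pooled map and above 0 in the replicates (0.16 and 0.06), against 0.50 to 1.12. They lie on 19q, where the score was the third component in SW480 and SNU-C1 and the first in HCC1954 and OE33, and SW480 correlated with the latter lines at 0.19 and 0.17. In the colorectal list *PIK3CA* (0.25 against -0.52 to -0.14) and *BCL9*, a WNT coactivator (1.14 against 0.52 to 1.03), had the largest positive differences, and *MYC* (0.67 against 0.90 to 1.26) was among the lowest.

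Of the mammary list, SW480 was above all lines at 4 of 15 and below at 3. Blocks switched to A held 181 of all 16878 genes with a score, and 2 genes of the mammary list. They were *XBP1*, a factor of the unfolded protein response (0.59 against -0.47 to -0.06), and *MUCL1*, a small breast mucin (0.33 against -0.45 to -0.27). *TRPS1*, a GATA-type repressor, had the lowest difference of any listed gene, -1.22 in SW480 against 0.99 in SNU-C1, -0.43 in OE33 and 1.04 in HCC1954 cells, with a relative coverage of 0.36, and *PIP* was the next lowest of the mammary list (0.15 against 0.67 to 1.35). Of the foregut and squamous list, 5 of 17 were above and 5 below. *CLDN18*, a gastric claudin on chromosome 3, scored -0.03 against -1.12 in HCC1954, -1.04 in OE33 and -1.004 in SNU-C1 cells, and *GATA4* scored 0.77 against -0.55 to 0.94, while *TP63*, the squamous master regulator (0.08 against 0.50 to 1.21), and *DSC3* (0.74 against 0.90 to 1.29) were lowest.

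Of the mesenchymal list, 6 of 22 were above and 3 below. The collagen gene *COL1A2* (0.65 against -1.19 to 0.38) and the integrin gene *ITGA5* (0.89 against 0.07 to 0.36) were highest. The transcription factor gene *TCF4* (-1.38 against -1.22 to 0.61) and *GREM1*, an antagonist of bone morphogenetic proteins (-0.0008 against 0.23 to 1.28), were lowest. After thinning and the same correction the counts above and below were 3 and 3 of 21 (intestinal), 3 and 4 of 15 (mammary), 2 and 7 of 17 (foregut and squamous), 3 and 3 of 22 (mesenchymal) and 3 and 7 of 23 (colorectal cancer), against 15.6% and 13.3% of all genes. *APC*, whose product restrains beta-catenin, scored 0.38 in SW480 (0.40 and 0.41), -0.15 in SNU-C1, -0.21 in OE33 and 0.77 in HCC1954 cells. Coverage over the 1 Mb around it was 0.252 of the autosomal median in SNU-C1, near the limit of 0.25 for kept bins. It was 1.37 in SW480, 1.18 in OE33 and 2.12 in HCC1954 cells.

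Contacts specific to SW480 were few and concentrated on chromosome 3. Of 4345121 block pairs at least 2 Mb apart, 468 (0.0108%) had an O/E of at least 4, at least 10 read pairs and at least 4 times the O/E of every other line after 0.5 was added. Chromosome 3 held 204 of them (43.6%), chromosome 12 held 59, chromosome 7 held 55 and chromosome 2 held 50. Longer chromosomes have more block pairs to test, and the number tested on each chromosome is not given here. The other lines had more under the same rule, 1794 in SNU-C1, 761 in OE33 and 1903 in HCC1954. Of the 468, 231 were also specific in each replicate, and 201 stood alone. Groups of at least 5 block pairs numbered 7 and held 191.

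The largest group, 105 block pairs, joined 27.4-35.4 Mb with 135.8-150.2 Mb of chromosome 3, across the centromere. The O/E at its highest block pair was 115 in SW480 (118 and 111 in the replicates), 1.01 in SNU-C1, 1.41 in OE33 and 2.85 in HCC1954 cells. The group held 3239 read pairs in SW480 and 60, 62 and 102 in the other lines. A second group, 43 block pairs on chromosome 12, joined 31.4-34.2 Mb with 124.0-129.4 Mb, with a highest O/E of 99.1 (106 and 91.7) against at most 3.39 elsewhere and 2116 read pairs against at most 162. On chromosome 19, 17 block pairs joined 4.0-4.8 Mb with 28.2-30.2 Mb at a highest O/E of 10.2 (9.46 and 10.7), with 639 read pairs against at most 12. On chromosome 20, 6 joined 53.2-54.2 Mb with 62.6-63.0 Mb at 12.7 (13.2 and 12.6), with 506 read pairs against at most 51. On chromosome 7, 6 joined 63.6-64.2 Mb with 118.6-120.4 Mb at 6.83 (6.88 and 7.06). This last group rested on only 81 read pairs, against 33 in OE33 cells. In each of these 2 groups, 3 of the 6 block pairs reached an O/E of 4 in both replicates.

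Contacts as frequent as those of bins 400 kb apart, at least 1 Mb apart on the reference and at least 4 times as frequent as in any other line, marked 4 SW480 junctions. The strongest joined 126.52 and 129.56 Mb of chromosome 8. Its contact frequency was 3.66 times the mean at 400 kb in SW480 (3.67 and 3.64 in the replicates), 0.085 in SNU-C1, 0.070 in OE33 and 0.039 in HCC1954 cells. It rested on 11734 read pairs in SW480 (exact 95% Poisson interval 11523-11948) and 52 (38.8-68.2) in the highest other line, and intervals cover counting error only. Of the quadrants around it, the one after the first end and before the second held 21743 read pairs, against 1119 to 3106 in the others. Relative coverage was 0.59 before the first end and 1.91 after it, and 3.74 before the second end and 0.61 after it.

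This high-coverage stretch contains *MYC*, the growth-promoting transcription factor gene. Over the 1 Mb around *MYC* (hg19, chr8:128747680-128755197, plus strand) coverage was 7.70 times the autosomal median in SW480 (7.77 and 7.62), 2.06 in SNU-C1, 1.97 in OE33 and 3.52 in HCC1954 cells. A second junction nested in it joined 126.60 and 128.04 Mb, with a frequency of 1.83 (1.84 and 1.81) against 0.057 to 0.139 in the other lines. No protein-coding gene overlapped either pair of ends.

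The junction at 21.92 and 27.48 Mb of chromosome 12 had a frequency of 1.31 in each of SW480 and both replicates, against 0.032, 0.068 and 0.014 in SNU-C1, HCC1954 and OE33 cells. It rested on 1455 read pairs against at most 12. Its ends lay at *LDHB*, a lactate dehydrogenase subunit, and the potassium channel genes *KCNJ8* and *ABCC9*, and at the kinase gene *STK38L* and the clock gene *BMAL2*. Contacts were again highest between the ends (4778 read pairs against 564 to 1330), and relative coverage was 1.63 before the first end, 3.11 after it, 3.39 before the second end and 1.80 after it. The junction at 17.60 and 19.36 Mb of chromosome 20 had a frequency of 1.85 (1.89 and 1.81) against 0.061 to 0.116. There the quadrant before the first end and after the second held most read pairs, 2228 against 256 to 831, and coverage between the ends was lower, 0.98 falling to 0.68 and 0.59 returning to 0.91. Its ends lay at *DSTN*, an actin-severing factor, *RRBP1* and *BANF2*, and in *SLC24A3*.

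**Figure D4:**
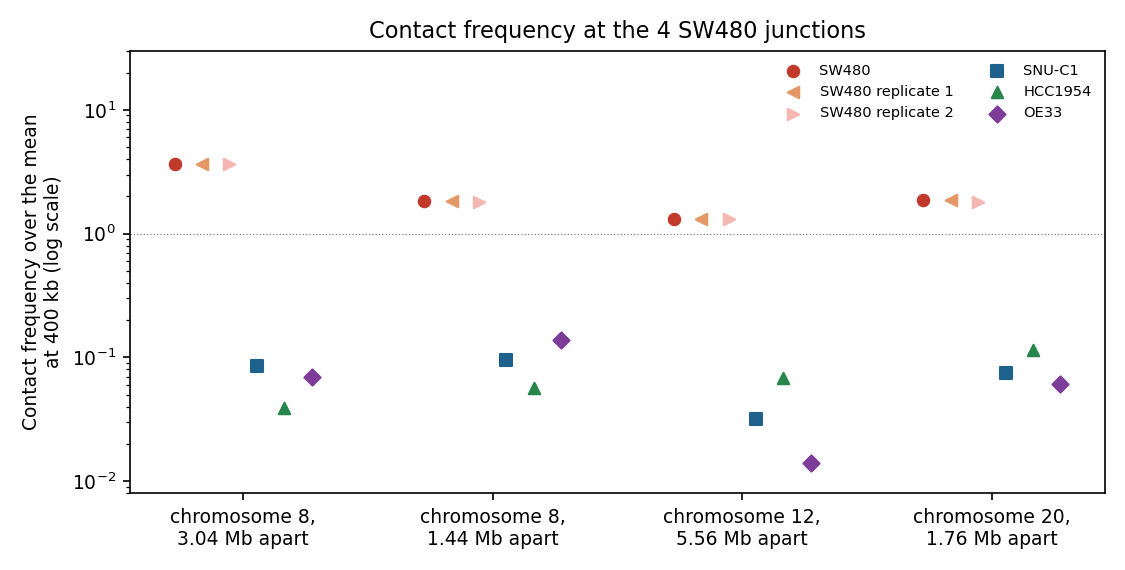
Contact frequency at the 4 SW480 junctions (vertical axis, log scale, over the mean of the map at 400 kb, dotted line at 1) in the 6 maps. The 3 SW480 maps lie between 1.31 and 3.67 and every other line lies at or below 0.139.

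At the lower level of the mean at 1 Mb, 14 junctions were called. They included 27.48 with 135.88 Mb of chromosome 3 (frequency 0.389 in SW480, 0.446 and 0.330 in the replicates, at most 0.0026 elsewhere) and 31.76 with 125.08 Mb of chromosome 12 (0.559, against at most 0.0056), each at an edge of or within the groups of block pairs named above. Chromosome 20 added 42.84 with 48.44 Mb (0.606) and 54.00 with 62.76 Mb (0.602).

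Coverage of SW480 relative to the other lines was highest on 18p and 12p and lowest on 8q. Relative coverage was the median read pairs per bin of an arm over the autosomal median of the map, divided by the median of that value over the remaining lines. It was at least 1.2 on 10 of 39 arms (25.6%) and at most 0.8 on 5 (12.8%), and the replicates differed by at most 0.032 on any arm. On 7 of the 10 gained arms SW480 lay above every other line and on 3 of the 5 lost arms below every other line. Gained and lost are relative to the other lines only. SW480 was below its own autosomal median on some gained arms (0.67 on 19p, 0.81 on 17p) and above it on others (1.59 on 12p). Copies of an arm and read pairs per copy cannot be told apart in these maps.

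On 18p the coverage of SW480 was 0.97 of the autosomal median (0.96 and 0.97), against 0.58 in SNU-C1, 0.49 in OE33 and 0.76 in HCC1954 cells, a relative coverage of 1.66. On 12p it was 1.59 in the SW480 map and in each replicate, against 0.99, 0.59 and 0.998 in SNU-C1, HCC1954 and OE33 cells, a relative coverage of 1.61. On 19q (relative coverage 1.45) and 17p (1.38) SW480 also lay above all others, whereas on 19p (1.37) OE33 lay higher. Without SNU-C1 or without HCC1954 the log2 relative coverage of 19p was -0.03 and -0.05. Within 12p the gain was uneven, with a median of 1.77 over 0 to 13 Mb and 3.10 over 21 to 30 Mb, the stretch between the ends of the chromosome 12 junction and beyond. On 18p it reached 2.27 in a window of 1 Mb, where *APCDD1* lies.

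The lowest arm was 8q, where SW480 had 0.92 of the autosomal median (0.92 in each replicate) against 1.65 in SNU-C1, 0.98 in OE33 and 1.52 in HCC1954 cells, a relative coverage of 0.60. The *MYC* stretch from 127 to 130 Mb, at a median of 3.42, lay on an arm whose coverage in SW480 was close to that of OE33 and below those of SNU-C1 and HCC1954. On 6p (0.75) and 1q (0.76) SW480 also lay below every other line, while on 20q (0.73) HCC1954 and on 9p (0.73) OE33 lay lower. On 20q SW480 had 1.41 of its autosomal median, against 1.94 in SNU-C1, 1.93 in OE33 and 0.91 in HCC1954 cells. The 6p value counts the 115 bins that had no SW480 read pairs and was 0.77 without them. The log2 relative coverage of 20q was -0.02 without SNU-C1 and without OE33. Short runs under 0.6 lay at 39-42 Mb of chromosome 5, 189-192 Mb of chromosome 1 and 0-3 Mb of chromosome 10.

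**Figure D5:**
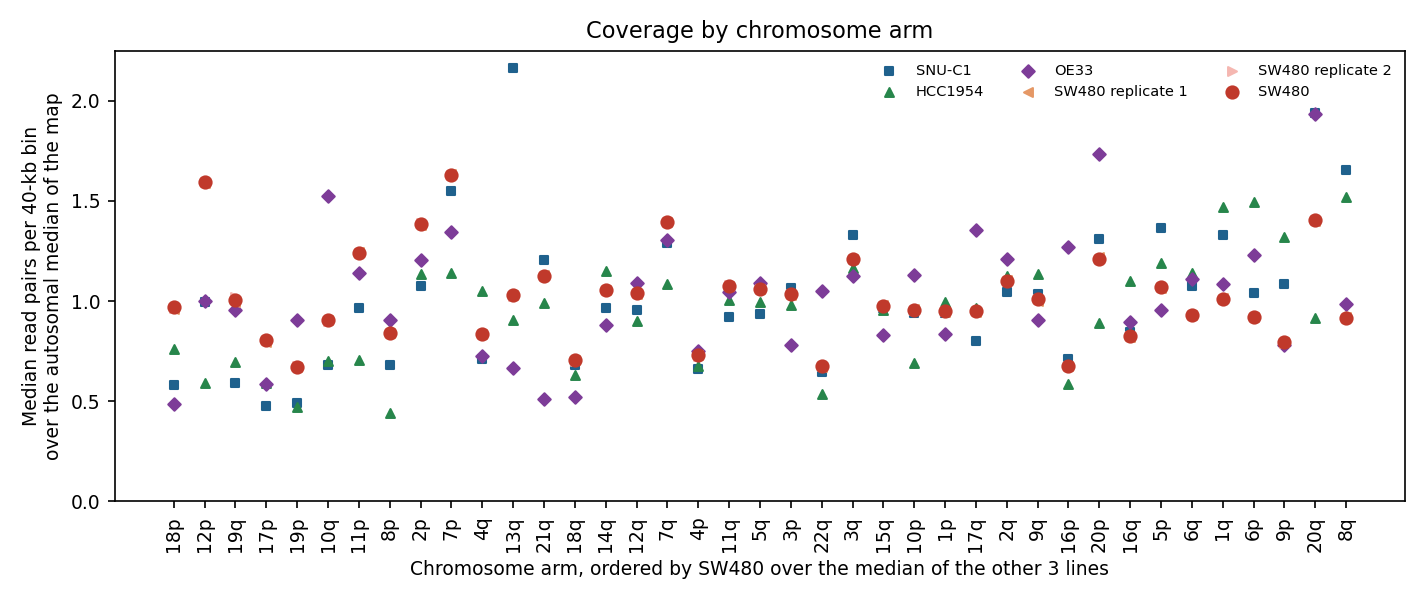
Median read pairs per 40-kb bin over the autosomal median of the map (vertical axis) for 39 chromosome arms, sorted by relative coverage of SW480, in the 6 maps; the replicate symbols lie under those of the SW480 map. SW480 stands above the other lines at 18p (0.97) and 12p (1.59) on the left and below them at 8q (0.92) on the right.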

How the data were processed

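In situ Hi-C maps of 4 cell lines were used as deposited. By the methods and the submitters' processing notes, MboI cut the chromatin, BWA placed the reads on hg19, Picard took out PCR duplicates, and the matrices were balanced by iterative correction. No version of these tools is given in the sources used here. Each value the authors deposited is a signal, namely the balanced contact frequency for 2 bins of 40 kb. Corrected sums were nearly constant within each chromosome in the SW480 maps, which listed pairs inside a bin, and over the genome in the others, which listed none.

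Read pairs were recovered by fitting bin factors (80 iterations, pairs at least 5 Mb apart), and products were whole within 0.02 for at least 99.98% of values tested up to 20.5 read pairs. Depth per map is given with the results, and it limits long-range values. O/E used the mean at each distance in the same map, smoothed over 10% beyond 5 Mb. Insulation used a 1-Mb window, a 200-kb delta and a minimum strength of 0.1. Compartments were that of the first 3 components of the O/E correlation matrix (O/E capped at 5, 200-kb blocks) most correlated with gene density, and arms under r = 0.3 in any map were left out. Alternatives were thinning with 40 rounds of correction per chromosome, other windows, thresholds, blocks and left-out lines or replicates. Calls of boundaries, switched blocks and junctions were tested on simulated data for chromosome 20, where every planted change was called, along with some boundaries that were not planted. The simulated maps held strong changes, no steps in coverage and no difference in correction between lines. How the calls behave under weaker changes, such steps or such differences was not tested.

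Named genes were those at junction ends, the 10 SW480-only boundaries with the largest depth difference, the 10 runs to A and to B with the largest gaps, the 5 highest and 5 lowest arms, listed genes in switched blocks, the 2 highest and 2 lowest differences of each list, *MYC* and *APC*. Those at boundaries absent from SW480 were picked with their values in view. The members, gene lists and comparisons were chosen with earlier results of these data known. Genes came from GENCODE lifted to GRCh37, and promoter sequences from RefSeq. Some loci are not reported here. Computation ran in Python 3.11.15 (SciPy 1.17.1, NumPy 2.4.6), tables were read with PyArrow 21.0.0 and pandas 2.3.3, and plots came from Matplotlib 3.10.9. No column was left unmapped.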

Additional observations from a re-analysis of the deposited data

Results flagged for a closer look

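The SW480 maps kept few pairs between chromosomes, 327918 bin pairs in the pooled map, and these entered no comparison above. Counted in 3969833 pairs of 1-Mb windows they averaged 0.0826 bin pairs per window pair, so most window pairs were at 0. In replicate 1, 33 window pairs held at least 8 bin pairs, and 23 of them did so in replicate 2, which had no part in the choice. The 33 fell into 10 places. The 6 whose highest window pair also held at least 8 in replicate 2 are listed here, from data not otherwise used. Both replicates thus took part in the choice of these 6, and their counts are descriptions. The sources used here do not say how the maps came to keep these pairs.

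The window at 127 Mb of chromosome 8, beside *MYC*, and that at 44 Mb of chromosome 19 shared 66 bin pairs (31 and 37 in the replicates). The windows at 94 Mb of chromosome 5 and 17 Mb of chromosome 20 shared 52 (23 and 36). The first of these windows adjoins the *KIAA0825* boundary and holds the run to A at *MCTP1*, and the second holds the first end of the chromosome 20 junction. The windows at 95 Mb of chromosome 5 and 52 Mb of chromosome 20 shared 29 (15 and 14).

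The windows at 0 Mb of chromosome 10 and 13 Mb of chromosome 12 shared 25 (15 and 11). Median relative coverage was 1.87 in the 3 windows before the chromosome 12 window and 1.38 in the 3 after it. The windows at 209 Mb of chromosome 1 and 146 Mb of chromosome 7 shared 29 (14 and 16), and those at 24 Mb of chromosome 5 and 58 Mb of chromosome 19 shared 20 (9 and 11). At all 6 places the other lines lay between 0.50 and 2.44 times their own mean contact frequency between windows. Those maps kept 18370145 to 47428688 bin pairs between chromosomes, so the levels in SW480 cannot be set beside theirs. Whether these contacts and the boundaries, switches and coverage steps beside them have a common origin was not tested.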

How the results depend on the processing

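No paired analysis was possible because SW480 alone has replicate numbers. The direction and order of the slope and of compartment strength among lines are given above. Thinned and corrected in the same way, the SW480 slope was -1.238 and specific block pairs numbered 258. The slope was -1.238 without chromosomes that hold a junction and -1.296 over 1 to 5 Mb. Leaving out SNU-C1, HCC1954 or OE33 in turn gave up to 211 SW480-only boundaries (211 without SNU-C1, 192 without HCC1954), 121, 100 and 113 absent boundaries, 862 and 634 switched blocks (without SNU-C1 and HCC1954), and 913, 965 and 974 block pairs. Absence within 4 bins left 35 absent boundaries. Blocks of 400 kb gave 238 switched blocks, a strength of 4.57 and 53 block pairs, a gap of 1 gave 175 switched blocks, and the top and bottom 20% of the mean score of all lines a strength of 4.18. Expected values from the same chromosome gave 294 block pairs, and no minimum of read pairs 1898. Junctions numbered 14 at the level of 1 Mb and 16 at 2 times the other lines. Arms past 1.5 or 0.67 numbered 3. Chosen after seeing the data, blocks with relative coverage of 0.8 to 1.2 left 184 switched. With 1 replicate in place of the pool, strength was 4.89 to 4.92 and block pairs 263 to 291. The log2 relative coverage of 19p was -0.0317 without SNU-C1 and -0.0511 without HCC1954, and no other of the 10 arms tested changed sign, although that of 20q was -0.02 without SNU-C1 or OE33. The share to A among switched blocks was 61.3% without SNU-C1. The cause of these differences was not tested, except that fewer lines leave a weaker rule. Thinning changed depth and correction together. The count of block pairs depends on depth, since 10 read pairs were the minimum.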
